A study of Arabidopsis thaliana with 6 samples.

Results

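The CBF cold regulon of Arabidopsis thaliana was examined through 10 named genes among 21693 genes of a shoot RNA-seq count table. They were listed by locus identifier, with earlier results of these data known. The genes were CBF1 (AT4G25490), CBF2 (AT4G25470) and CBF3 (AT4G25480), their regulator ICE1 (AT3G26744), and the cold-regulated effector genes COR15A (AT2G42540), COR15B (AT2G42530), COR47 (AT1G20440), KIN1 (AT5G15960), KIN2 (AT5G15970) and COR78 (AT5G52310). Shoots of 8-day-old seedlings were compared between the wild type (WT, 3 samples) and the phod1 mutant (3 samples). The ecotype and the gene affected in phod1 are not given in the labels, so the labels could not be checked by the level of a targeted gene. Both genotypes grew at 23 °C on 1/2 Murashige and Skoog agar, a nutrient-rich medium, with 1.0% sucrose, 1.1% agar, 16 h of light and 8 h of darkness, and the labels name no cold treatment. The comparison therefore concerns the level of the pathway in plants kept warm.

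CBF proteins are transcription factors of the AP2/ERF family that bind the C-repeat, also called the dehydration-responsive element (CRT/DRE), whose core is CCGAC. Their genes lie side by side and are switched on within a short time of a chill, in part through the bHLH factor ICE1, and their levels in warm plants follow the circadian clock and mechanical disturbance. Their products switch on effector genes such as COR15A and COR15B, which encode proteins of the chloroplast stroma that protect membranes during freezing, COR47, a dehydrin gene, KIN1 and KIN2, which encode small hydrophilic proteins, and COR78, also known as RD29A, which responds to cold, drought and abscisic acid.

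The CRT/DRE core was searched on both strands in the 1000 bases before each start codon, in the RefSeq sequence and annotation of build TAIR10.1 (the submitters' notes name TAIR10). At least 1 match lay before each of the 6 effector genes, and none before CBF1, CBF2, CBF3 or ICE1. Of 27443 protein-coding genes, 39.4% held at least 1 match in a window of that length. CBF proteins are known to act on these genes through elements with this core. The match nearest to the start codon of each effector gene is shown with 10 bases on either side and the core in capitals. It was picked by distance alone, and which match CBF proteins use was not tested.
COR15A: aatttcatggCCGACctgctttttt
COR15B: aacttgatggCCGACctcttttttc
COR47: tattcatctaCCGACttcaagaaat
KIN1: taaatagctaCCGACataaggcaaa
KIN2: taaaaagctaCCGACataaggcaaa
COR78: aaagatcaagCCGACacagacacgc
These stretches lie at chr2:17712218-17712242, chr2:17710124-17710148 and chr1:7085918-7085942 on the minus strand, and at chr5:5209804-5209828, chr5:5211771-5211795 and chr5:21240711-21240735 on the plus strand. Their cores start 266, 265, 268, 178, 185 and 208 bases before the start codon, in the order shown. All 6 lie on the strand of the gene and within the annotated span between transcript start and start codon, which in this annotation is long (212 to 1209 bases for these genes). COR78 held 4 CCGAC matches, COR15A 3, COR15B and KIN1 2 each, and COR47 and KIN2 1 each. The core of the abscisic acid response element (ABRE), ACGTG, was found on either strand before 9 of the 10 genes, all but ICE1, and before 54.2% of all genes.

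**Figure D1:**
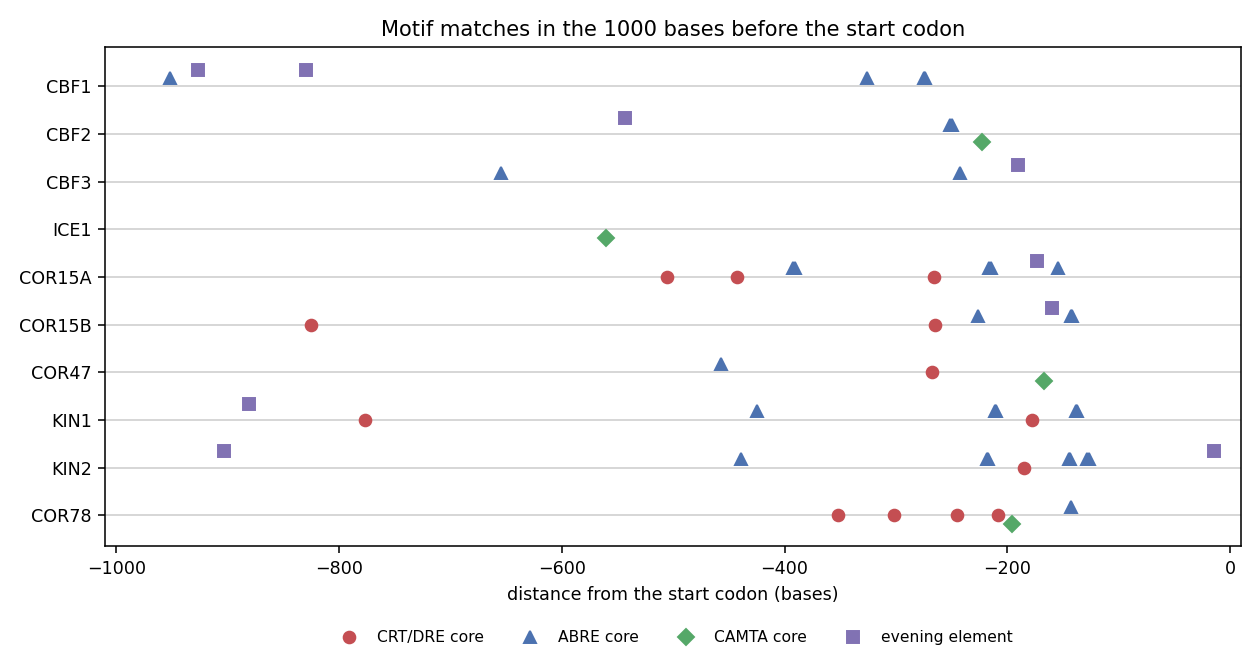
Matches to 4 motifs in the 1000 bases before the start codon of each regulon gene, plotted by distance from the start codon in bases. CRT/DRE cores (circles) stand before the 6 effector genes and before none of the CBF genes or ICE1.

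In the shoot libraries, estimated counts summed to 33183463 to 54720319 units, and low values were spaced about 4 units apart, which was taken as 1 fragment, so that a floor of 3 fragments stood at 0.256 to 0.404 CPM (a count relative to the total of its library, on a fixed scale). Floors cover counting error only. Levels below are CPM scaled by the trimmed mean of M-values (TMM), and errors are SDs over 3 libraries. Whether replicates were grown separately is not said in the labels, so p-values measure only how these samples spread, possibly for technical reasons. In 741 of 10803 tested genes (6.86%), 1 library lay at least 8-fold from both others of its genotype, and COR15A and COR47 were among them. Green tissue markers were abundant in every library, with a summed level, for 7 of the 8 listed genes, of 84948 to 123052 CPM in WT against 49546 to 56497 CPM in phod1. Of 6 tested markers 5 fell in phod1, where 13.0% of all genes tested fell, and 6 genes are too few to set against that share. The other tested marker, RBCS2B, did not pass, with phod1 1 at 87.4 CPM against 1522 and 2436 CPM in phod1 2 and phod1 3. RBCS1A, a listed marker that was not tested, held more than 1 unit in WT 1 alone, where its 18141 CPM are part of the upper end of the WT sum. Of the 7 root markers, PYK10 stood at 210 to 277 CPM over the 6 libraries, EXPA7 and MRN1 were at 0, and the sum of the 7 was 211 to 238 CPM in WT against 231 to 279 CPM in phod1. In whole shoots, fewer cells of a type and less RNA per cell cannot be told apart, and the part of the tissue make-up in the results below was not tested.

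All 3 CBF genes were lower in phod1, whereas none of the effector genes and not ICE1 passed the test. CBF1 stood at 13.1, 12.3 and 9.57 CPM in WT 1 to 3 and at 3.11, 2.52 and 2.43 CPM in phod1 1 to 3. The mutant libraries all lay below the lowest WT library, and the mean fell 4.34-fold, from 11.7 ± 1.86 to 2.69 ± 0.367 CPM (log2 change -2.11 ± 0.189 SE, adjusted p = 0.00108, edgeR quasi-likelihood test with Benjamini-Hochberg adjustment over all genes). CBF2 stood at 40.4, 41.97 and 40.5 CPM in the WT libraries and at 15.2, 16.8 and 17.6 CPM in the phod1 libraries. These values are tight within each genotype and far apart between them, with a 2.48-fold fall from 40.9 ± 0.898 to 16.5 ± 1.19 CPM (log2 change -1.31 ± 0.0964 SE, adjusted p = 5.80e-04). CBF3 stood at 26.7, 24.8 and 28.3 CPM in WT and at 8.72, 10.6 and 10.9 CPM in phod1. It fell 2.64-fold, from 26.6 ± 1.79 to 10.06 ± 1.17 CPM (log2 change -1.40 ± 0.127 SE, adjusted p = 0.00112), again with no overlap.

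**Figure D2:**
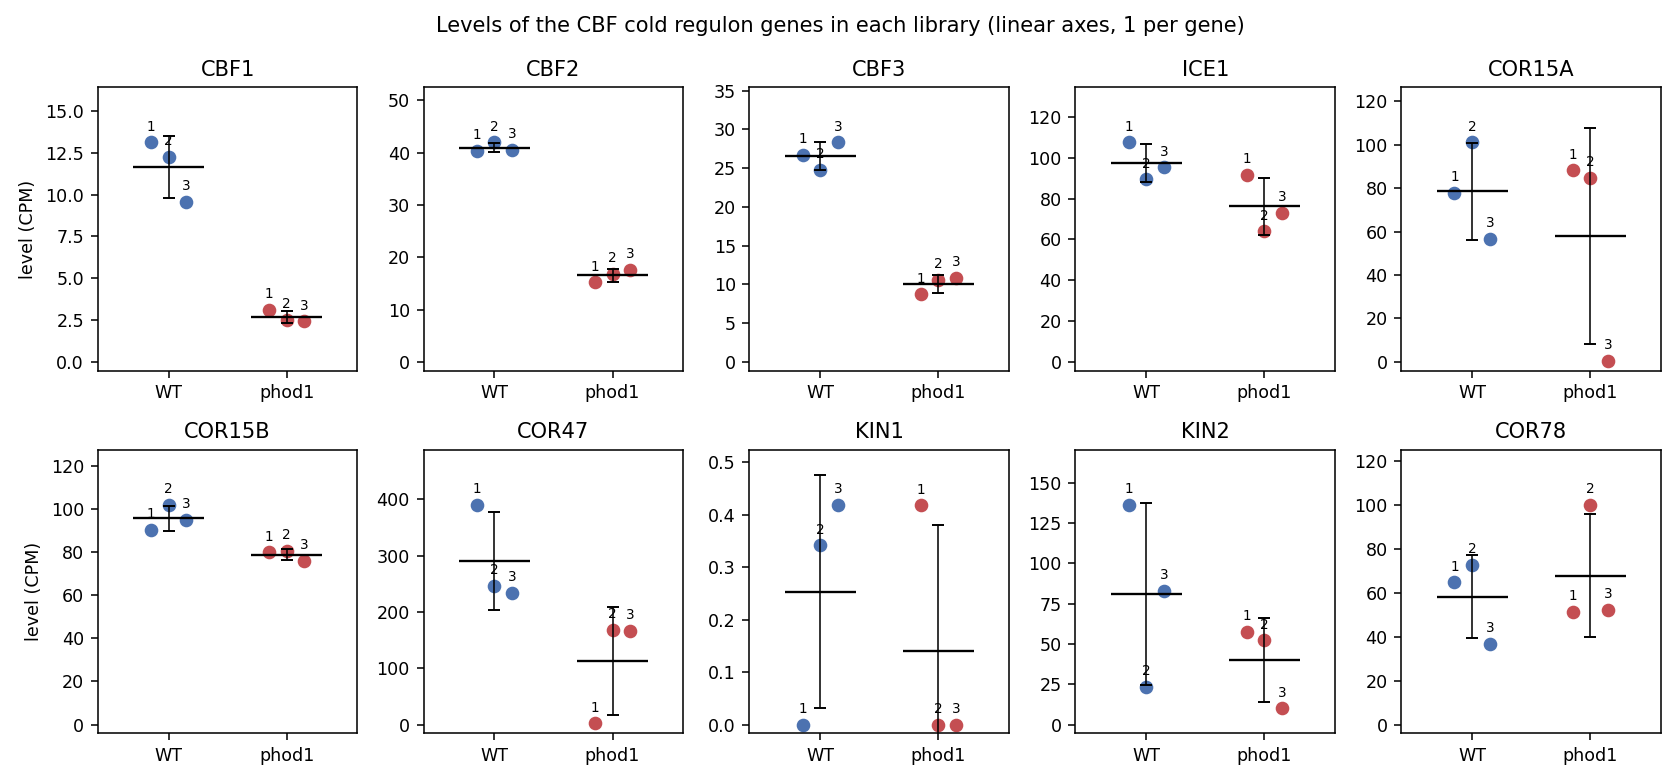
Level in CPM of each of the 10 regulon genes in each library (points, with the replicate number), with mean (bar) and SD (whisker) of each genotype and a linear axis per gene. CBF1, CBF2 and CBF3 separate the genotypes with no overlap, while COR15A in phod1 3 and COR47 in phod1 1 lie near 0, far from their sister libraries.

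Over all genes tested, 27.7% passed the threshold of 0.05, 14.6% as higher and 13.0% as lower in phod1 (1581 and 1407 genes). With library totals alone in place of TMM the median of all genes moved by 0.38 on the log2 scale, 3544 genes were higher and 618 lower, and the CBF genes still passed as lower. Of the 10 regulon genes 9 were tested, of which 3 passed, all lower, and 6 did not. Among the genes tested, 1.86% had a log2 fold change as low as that of CBF1 or lower, 4.17% for CBF3 and 4.85% for CBF2. For COR47, which did not pass, this share was 4.39%. Non-overlapping lower values in phod1 were seen for 5 of the 9 (CBF1, CBF2, CBF3, COR15B and COR47) and for 22.9% of all genes tested, and non-overlapping higher values for 0 of the 9 and for 24.7% of all genes tested. The authors' deposited table of 3902 genes lists the same direction for the CBF genes, with log2 fold changes of -2.13, -1.32 and -1.41 for CBF1, CBF2 and CBF3. These values equal those of DESeq2, an alternative test run here on the same counts, so they are not separate evidence.

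The CBF genes are close copies. The coding sequence of CBF1 was 86.7% identical to that of CBF2 and 85.0% to that of CBF3, and CBF2 and CBF3 were 86.9% identical, and how reads were assigned among them is not given. Of 593 stretches of 50 bases in the coding sequence of CBF1, 29 also occurred unchanged in CBF2 and 0 in CBF3, and of 602 in CBF2, 0 occurred in CBF3. When the counts of the CBF genes were summed to 1 row, the level was 80.2, 79.03 and 78.4 CPM in WT and 27.1, 29.9 and 30.9 CPM in phod1. For this sum the log2 fold change was -1.44 with an SE of 0.0883 (adjusted p = 3.53e-04), and this value does not depend on how reads were divided among the copies. CBF1 made up 16.4%, 15.5% and 12.2% of the summed counts in WT 1 to 3 and 11.5%, 8.43% and 7.88% in phod1 1 to 3. Its share was lower in each phod1 library than in any WT library, with an exact two-sided permutation p of 0.1, the smallest that 3 against 3 libraries allow. The share of CBF2 was higher in phod1, at 56.5% ± 0.376 against 51.7% ± 1.39 (exact permutation p = 0.1), and that of CBF3 overlapped between genotypes (exact permutation p = 0.8). These shares are not corrected for transcript length and rank no gene above another.

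The stretch of 200 bases before the annotated start of CBF2 is shown, since the control of this gene is where calmodulin-binding CAMTA factors, which recognise CGCG, and light-regulated factors that bind the G-box, CACGTG, are known to act. Both motifs are in capitals.
CBF2: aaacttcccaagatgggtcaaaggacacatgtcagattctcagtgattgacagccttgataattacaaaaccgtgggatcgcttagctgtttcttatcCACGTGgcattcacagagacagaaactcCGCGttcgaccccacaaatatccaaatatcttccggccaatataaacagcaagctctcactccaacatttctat
This stretch is chr4:13016236-13016435 of TAIR10.1 on the minus strand. It held 1 CGCG and 1 CACGTG, which 8.72% and 5.71% of 27443 stretches of the same length hold, and each reads the same on both strands. The stretches of 200 bases before the annotated starts of CBF1 and CBF3 held neither. These starts lie 434 and 397 bases before the start codon, and that of CBF2 lies 149 bases before it. CBF1 did hold a CACGTG between its annotated start and start codon, which the 200-base stretch leaves out. There ACGTG lay 274 bases before the start codon on the gene strand and 275 on the other, against 250 and 251 in CBF2. The G-box is thus not particular to CBF2 among the copies. The evening element AAAATATCT, a site of clock factors, was found on either strand in the 1000 bases before the start codon of CBF1 (2 matches), CBF2 (1) and CBF3 (1), as well as COR15A (1), COR15B (1), KIN1 (1) and KIN2 (2), which makes 7 of the 10 regulon genes, and before 7.25% of all genes.

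ICE1, the bHLH activator upstream of CBF3, stood at 108, 89.5 and 95.3 CPM in WT and at 91.6, 63.998 and 73.2 CPM in phod1. The genotypes overlapped, and the log2 fold change of -0.35 (SE 0.157) had a 95% interval of -0.74 to 0.03 and did not pass (adjusted p = 0.156), and its sign turned with library totals alone (0.025). The CBF total per 100 units of ICE1 was 81.7 ± 6.91 in WT and 39.5 ± 8.92 in phod1, with no overlap (exact permutation p = 0.1, the smallest possible).

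None of the 5 effector genes tested passed in edgeR. At an unadjusted p under 0.05 there was 1, COR15B, which was also the 1 that passed in DESeq2. COR15B stood at 90.4, 101.9 and 94.9 CPM in WT and at 79.9, 80.5 and 75.9 CPM in phod1. The genotypes did not overlap, but the difference was small, with a log2 fold change of -0.28 (with an SE of 0.0813, a 95% interval -0.48 to -0.08, adjusted p = 0.0511). With library totals alone in place of TMM, its direction turned, to 0.099 on the log2 scale. The authors' deposited table lists COR15B at -0.29 and none of the other effector genes. The CBF total per 100 units of COR15B, a ratio that does not depend on library scaling, was 88.7, 77.5 and 82.6 in WT and 33.9, 37.2 and 40.7 in phod1. The CBF transcripts were thus lower relative to COR15B in each phod1 library than in any WT library (exact permutation p = 0.1). In the annotation, COR15B shares 468 bases with AT2G42520, a gene on the opposite strand, and no source used here gives the strand setting of the counting, so that reads of these genes may not have been told apart.

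COR15A stood at 77.8, 101 and 56.6 CPM in WT and at 88.2, 84.9 and 0.535 CPM in phod1. The phod1 values lay within the WT range in phod1 1 and phod1 2, and phod1 3 was far below. The log2 fold change of -0.44 with an SE of 1.35 (adjusted p = 0.850) became 0.14 (SE 0.258, adjusted p = 0.757) without phod1 3. COR15B, which lies 7 bases from COR15A in the annotation and whose coding sequence is 82.8% identical, held 75.9 CPM in phod1 3, close to its sister libraries. Summed, the COR15 pair held 174 ± 26.4 CPM in WT against 137 ± 52.2 CPM in phod1 (log2 change -0.35 ± 0.320 SE, adjusted p = 0.480).

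COR47 stood at 390, 247 and 234 CPM in WT and at 1.93, 168 and 167 CPM in phod1. All phod1 values lay below all WT values, but phod1 1 stood far below its sisters, which left a log2 fold change of -1.37 with an SE of 1.28 (adjusted p = 0.492). Without phod1 1 it was -0.79 (SE 0.262, adjusted p = 0.105). The neighbouring dehydrin gene ERD10 held 172 CPM in phod1 1, against 165 and 191 CPM in the other phod1 libraries, so it showed no such gap.

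KIN1 and KIN2 are tandem genes whose coding sequences are 95.02% identical. KIN1 was at 0, 0.341 and 0.419 CPM in WT and at 0.418, 0 and 0 CPM in phod1, which is at about the floor, so it was not tested across genes and no fold is given (exact permutation p = 0.7). KIN2 stood at 136, 23.5 and 83.0 CPM in WT and at 57.3, 52.2 and 10.05 CPM in phod1. The genotypes overlapped and both spread widely (log2 change -1.02 ± 0.839 SE, adjusted p = 0.432), and the sum of the pair gave nearly the same values (log2 -1.02, adjusted p = 0.430). Without WT 1 the log2 fold change of KIN2 was -0.41 and without phod1 3 it was -0.56.

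COR78 was the only effector gene tested with a positive log2 fold change. It stood at 64.7, 72.6 and 36.8 CPM in WT and at 51.3, 99.9 and 52.04 CPM in phod1. The genotypes overlapped (log2 change 0.22 ± 0.371 SE, 95% interval -0.69 to 1.14, adjusted p = 0.714), and the sign turned without phod1 2 (-0.17) or without WT 3 (-0.016). The 95% intervals of COR15A, COR47 and KIN2 include the log2 fold change of CBF2, so these libraries do not show whether those genes changed like it. The intervals of COR15B and COR78 do not include it, though the counts of COR15B may hold reads of the overlapping gene AT2G42520.

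**Figure D3:**
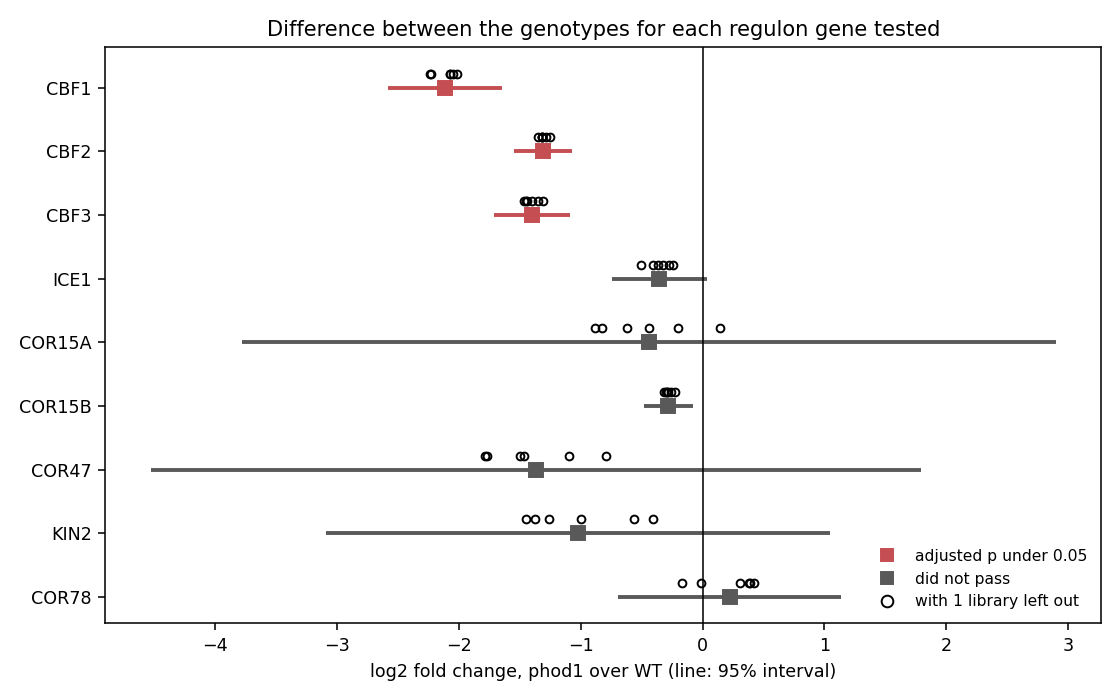
Log2 fold change of phod1 over WT for the 9 regulon genes tested (squares), with 95% intervals (lines) and the values with 1 library left out (open circles). CBF1, CBF2 and CBF3 lie between -2.11 and -1.31 with narrow intervals, COR15B lies at -0.28, and the intervals of COR15A, COR47 and KIN2 span several log2 units.

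Other known targets of CBF proteins were examined as a list of 14 genes, all tested. In it 3 fell, 0 rose and 11 did not pass, with a median log2 fold change of -0.34 against 0.014 over all genes tested, of which 13.0% fell and 14.6% rose. By unadjusted p under 0.05, 6 were lower and 0 higher, a count for which no share over all genes was taken. By DESeq2 5 were lower and 0 higher, while of all 13806 genes it fitted 1904 were lower and 1982 higher. The shares of 13.0% and 14.6% belong to edgeR alone. The genotypes did not overlap, with phod1 lower, for 8 of the 14, against 22.9% of all genes tested. ERD4, an early dehydration gene, fell from 467 ± 96.5 to 254 ± 10.9 CPM (log2 change -0.88 ± 0.158 SE, adjusted p = 0.0111). COR413IM1, which encodes a protein of the chloroplast inner envelope, fell from 60.2 ± 5.90 to 40.8 ± 2.56 CPM (log2 change -0.56 ± 0.110 SE), and the dehydrin gene ERD14 from 407 ± 20.6 to 322 ± 10.5 CPM (log2 change -0.33 ± 0.0703 SE). The call of ERD14 was lost without any one of WT 1, WT 2, phod1 1 and phod1 2, that of COR413IM1 without phod1 1 or phod1 2, and with library totals alone the calls of ERD4 and COR413IM1 were lost and the sign of ERD14 turned (0.045). COR413-PM1, a related gene of the plasma membrane, stood at 330, 336 and 311 CPM in WT and at 86.1, 86.1 and 216 CPM in phod1. The genotypes did not overlap, but phod1 3 stood apart and the test was missed (log2 change -1.33 ± 0.393 SE, adjusted p = 0.0546), while without phod1 3 it was passed (log2 -1.92, adjusted p = 0.00121).

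Of 24 regulators known to act upstream of the CBF genes, 2 rose, 2 fell and 20 did not pass, with a median of 0.07. Over all genes tested 14.6% rose and 13.0% fell, so these counts do not stand above the background. MYB15, a repressor of CBF transcription, was at 0.404, 0.0854 and 0.290 CPM in WT, at or under the floor of 3 fragments, and at 2.04, 2.14 and 2.51 CPM in phod1 (adjusted p = 0.009996), so it rose with no fold given. MPK4, a protein kinase gene of this list, rose from 52.8 ± 1.93 to 82.7 ± 1.78 CPM (log2 change 0.65 ± 0.0754 SE, adjusted p = 0.00265). ICE2, the close relative of ICE1, fell from 142 ± 12.9 to 84.2 ± 2.70 CPM (log2 change -0.75 ± 0.0922 SE, adjusted p = 0.00313). SOC1, a flowering gene whose product represses CBF genes, fell from 48.1 ± 4.88 to 16.7 ± 3.28 CPM (log2 change -1.52 ± 0.176 SE, adjusted p = 0.00260).

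Among 6 tested clock genes known to act on CBF genes, 1 rose, 2 fell and 3 did not pass. The shares over all genes tested were 14.6% rising and 13.0% falling, and a list of 6 genes is too short to set against them. LHY, a dawn factor that activates CBF genes, rose from 6.42 ± 0.599 to 15.9 ± 1.13 CPM (log2 change 1.31 ± 0.126 SE, adjusted p = 0.00138). PRR5, which represses them later in the day, fell from 96.1 ± 5.12 to 33.02 ± 2.30 CPM (log2 change -1.54 ± 0.0944 SE, adjusted p = 3.52e-04). TOC1, an evening repressor, fell from 71.8 ± 6.05 to 53.6 ± 4.94 CPM (log2 change -0.42 ± 0.112 SE, adjusted p = 0.0390), a call that was lost without any one of WT 1, WT 2, phod1 1 and phod1 3. The hour at which shoots were collected is not given in the labels, and the part of the clock in the level of the CBF genes was not tested.

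Relatives of the CBF genes in the DREB family were mostly low. Of 10 listed, 7 were tested, of which 2 fell, 0 rose and 5 did not pass (median -0.40). By unadjusted p under 0.05, 0 of the 7 rose, and by DESeq2 0 rose. Of all genes tested, 13.0% fell and 14.6% rose, and 7 genes are too few to set against these shares. DREB26 fell from 12.2 ± 1.88 to 1.92 ± 0.545 CPM (log2 change -2.67 ± 0.267 SE, adjusted p = 0.00156), and DREB2B, a factor of drought and heat responses, from 4.94 ± 1.14 to 2.51 ± 0.620 CPM (log2 change -0.98 ± 0.269 SE, adjusted p = 0.0437). The call of DREB2B was lost without any one of WT 1, WT 2, phod1 1 and phod1 3. CBF4, which responds to drought, had 8 units in phod1 2 and 0 in the other libraries, and DDF2 was at 0 in all of them, below a floor of 0.256 to 0.404 CPM.

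Transcription factor genes that cold induces in parallel with the CBF genes were counted in the same way. Of 11 tested, 7 fell and 1 rose while 3 missed the test, with a median of -1.13, against 13.0% falling and 14.6% rising over all genes tested. ERF5, of the ethylene response factors, fell from 55.6 ± 1.34 to 11.2 ± 0.764 CPM (log2 change -2.31 ± 0.0975 SE, adjusted p = 1.43e-04), WRKY33, a defence regulator, from 118 ± 9.42 to 33.9 ± 2.07 CPM (log2 change -1.80 ± 0.0999 SE), and MYB73 from 117 ± 7.17 to 39.5 ± 1.78 CPM (log2 change -1.56 ± 0.0874 SE). The member that rose was CRF2, a cytokinin response factor, from 29.7 ± 2.37 to 57.1 ± 2.49 CPM (log2 change 0.94 ± 0.0990 SE). Of the touch-induced genes, 4 of 6 tested were lower and 0 higher (0 by unadjusted p under 0.05 and 0 by DESeq2). Of all genes tested, 13.0% fell and 14.6% rose, and 6 genes are too few to set against these shares. Their median of -2.34 lies between TCH3 (-1.94) and CML37 (-2.74). TCH3 and TCH4 did not pass, with 1 WT library far below the others in each (14.1 CPM in WT 2 and 0.837 CPM in WT 3). The calmodulin-like gene CML38 fell from 24.4 ± 1.68 to 2.51 ± 1.41 CPM (log2 change -3.28 ± 0.427 SE, adjusted p = 0.00373), and WRKY40 from 39.6 ± 20.3 to 5.77 ± 0.428 CPM (log2 change -2.78 ± 0.466 SE). CML37 fell from 1.18 ± 0.244 CPM to 0.174 ± 0.0370 CPM, which is under the floor, and TCH2 from 117 ± 11.4 to 91.2 ± 3.46 CPM (log2 change -0.36 ± 0.0976 SE). The call of TCH2 was lost without any one library except WT 1, and its sign turned with library totals alone (0.016).

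Abscisic acid and drought genes, which share CBF targets such as COR78, stayed mostly below the threshold. Of 14 tested, 1 rose, 1 fell and 12 did not pass, with a median of -0.19. Most of all genes tested did not pass either (7815 of 10803), while 14.6% rose and 13.0% fell. NCED3, the rate-limiting enzyme gene of abscisic acid synthesis, fell from 33.1 ± 2.16 to 8.81 ± 1.27 CPM (log2 change -1.91 ± 0.141 SE, adjusted p = 5.80e-04), and the drought gene RD22 rose from 321 ± 62.7 to 653 ± 43.8 CPM (log2 change 1.03 ± 0.152 SE, adjusted p = 0.00589).

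**Figure D4:**
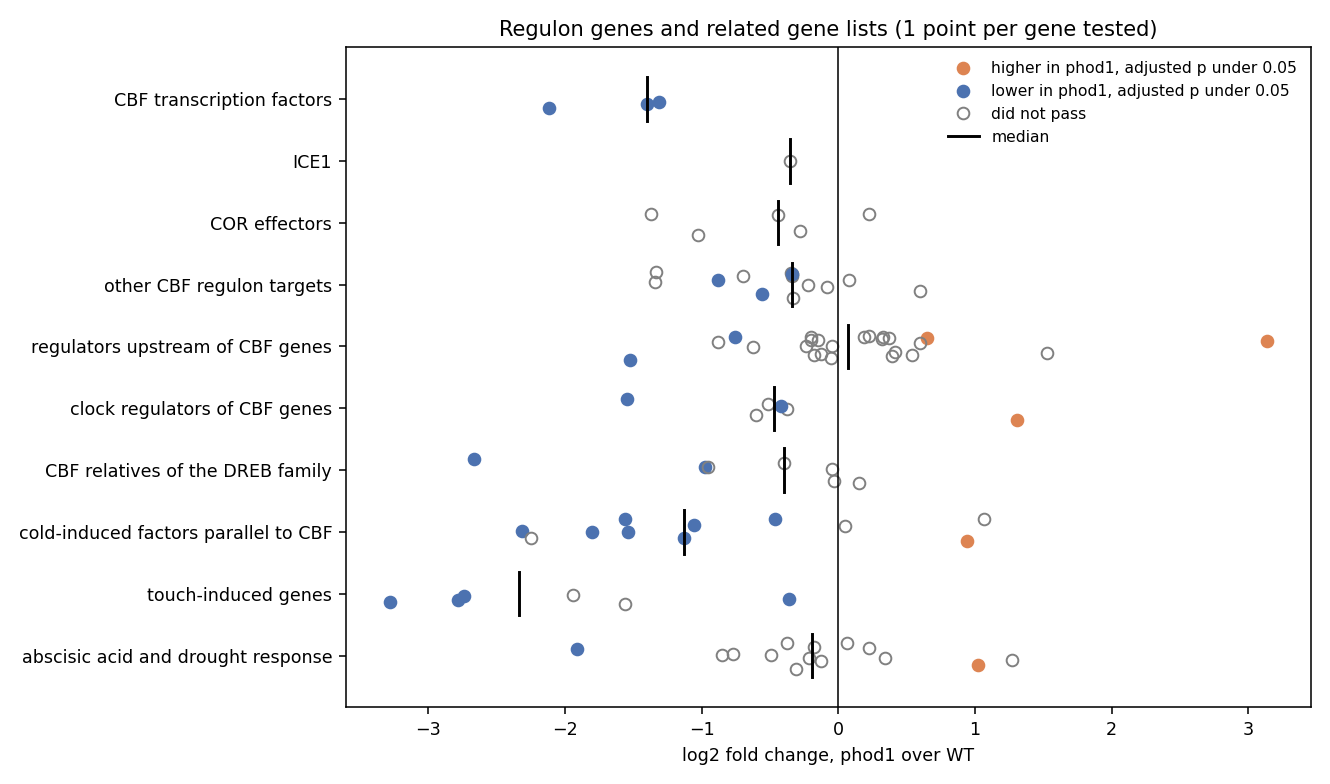
Log2 fold change of phod1 over WT for each tested gene of the regulon and of 7 related lists (1 point per gene, filled where the adjusted p was under 0.05), with the median of each list as a bar. The CBF genes, the factors that cold induces in parallel and the touch-induced genes lie to the left of 0 at their medians of -1.40, -1.13 and -2.34. The last median is set by TCH3, in which WT 2 stood far below WT 1 and WT 3, and by CML37, which is under the floor in phod1. The medians of the effector genes (-0.44) and other CBF targets (-0.34) lie nearer to 0, though COR47 (-1.37) and KIN2 (-1.02), which did not pass, lie further left.

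The genes whose levels over the 6 libraries were most like the mean profile of the 5 effector genes tested were UVI4, CYL1, AT5G04780, ALA3 and EMB2016, with Pearson correlations of 0.988 to 0.997. None of them passed the test between genotypes. The profile was lowest in phod1 3 and phod1 1, the libraries in which COR15A and COR47 were near 0, and with 6 libraries and 10803 genes such values are a description of these libraries.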

How the data were processed

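Per the labels, shoot RNA was purified on plant columns with DNase and made into libraries by the usual Illumina steps. The authors deposited estimated counts (expected counts) per gene and library, whole and not normalized. STAR, StringTie, CASAVA 1.4 and TAIR10 are named, with no role or order, per the submitters' processing notes. No source used here gives the counting command, annotation or strand setting. Per the file headers, the authors' deposited table of phod1 against WT holds a log2 fold change with its SE, a test score, p-values and adjusted p-values, and a mean normalized signal (baseMean). Its tool is not given, but its log2 fold changes and SEs for CBF1, CBF2, CBF3 and COR15B equalled those of the DESeq2 test run here. The deposited table was read for the regulon genes alone.

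Expected counts were rounded, which changed no value, and tested as planned for counts. Of 21693 genes, 10803 passed filterByExpr (minimum count 10, minimum total 15). After TMM scaling, the two-sided quasi-likelihood test of edgeR 4.0.16 (R 4.3.3; glmQLFit, then glmQLFTest) was run with genotype alone in the model. P-values were adjusted over the tested genes by Benjamini-Hochberg, with a threshold of 0.05. On simulated counts with known changes in 200 of 10803 genes, the fit recovered 34.1% of 2-fold and 64.8% of 4-fold changes, and 5 of 103 calls were false. In the data 2988 genes passed, so the adjustment was stricter in the simulation and these recovered shares need not hold for the data. A gene that did not pass may still have changed. The SE is the log2 fold change divided by the square root of F. A fragment was taken as 4 units from the spacing of low values, which no source states. DESeq2 1.42.0, other scalings and filters, a replicate block, each library left out, values divided by 4 and summed tandem copies were alternatives. Library totals alone were added after seeing the data.

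The regulon genes, lists, tests and alternatives were chosen with earlier results of these data known. Besides the regulon genes, up to 3 called genes of each list with the smallest p were named, or all where 5 or fewer passed, in total or in 1 direction. COR413-PM1, ERD10, CBF4, DDF2, and the ratio to COR15B were chosen after their values were seen. PRR7, COR28 and RBCS3B were not analysed here. DDF1, at up to 8 units, was not tested. Motifs were counted in RefSeq TAIR10.1 before the start codon of the transcript with the longest coding sequence. Likeness used log2(CPM + 0.5).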

Additional observations from a re-analysis of the deposited data

How the results depend on the processing

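The falls of CBF1, CBF2 and CBF3 kept their direction and their call under all alternatives that fitted them, including the replicate block and each library left out, with log2 fold changes of -2.24 to -1.73, -1.35 to -0.93 and -1.46 to -1.03. The upper ends came with library totals alone, which moved the median of all genes by 0.38 and gave 3544 genes higher and 618 lower (1581 and 1407 with TMM), and 12 members of the other lists higher. Under that scaling ICE1 (0.025), COR15B (0.099), ERD14 (0.045), ERD10 (0.046) and TCH2 (0.016) changed sign, and ERD4, COR413IM1, TOC1 and DREB2B lost their call. With no filter TOC1, DREB2B and TCH2 lost theirs. With 1 library left out, COR78 ran from -0.17 (without phod1 2) to 0.42 and was -0.016 without WT 3, and COR15A ran from -0.88 to 0.14 (without phod1 3). DESeq2 raised the members of other lists called higher from 5 to 8, and COR15B passed with its test (adjusted p = 0.00916) and with its size factors (0.0478); over its alternatives, that p ran from 0.00916 to 0.431. No pairing by replicate number was seen (correlations of deviations -0.0508 to 0.0074 for equal numbers), though 3 libraries per genotype cannot show that there was none. As a block they left 1500 genes of 2988, 788 higher and 712 lower, and ERD4, COR413IM1, ERD14, TOC1, DREB2B and TCH2 lost their call. Elsewhere the cause was not tested. Depth limits KIN1, CML37 and MYB15, which lay near the floor in at least 1 genotype.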
